A study of Mus musculus with 8 samples.

Results

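The *Pax* family was followed in 8 whole mouse embryos of stage E8.5, and its members were chosen by gene symbol: all 9 genes, *Pax1* to *Pax9*, of the 20660 named genes on the array, through every probe whose RefSeq transcript maps to them. Of the embryos, 4 were sired by *Eed* wt/wt males, labelled WT, and 4 by *Eed* hypo/wt males, labelled HET, which carry a single copy of the hypomorphic allele Eedl7Rn5-1989SB on a C57bl6/129 background. EED is a core protein of PRC2, the complex that methylates lysine 27 of histone H3, and the comparison asks whether the father's genotype alters gene expression in offspring that did not inherit the allele. All mothers and all 8 embryos were wild type, and the labels give this strain and background for every sample, although the sources differ on the strain of the mothers, which a legend of the study names as c57bl/6J. Each group held 2 females and 2 males by the labels. RNA of each whole embryo, labelled with Cy3, was hybridised to an Agilent 8x60K array of its own. Levels are given as the log2 of the processed spot signal minus the 75th percentile of the same array, so that a level of 0 is the 75th percentile of the array's spots. Because probes bind with different strength, levels were compared between embryos within a probe and not between probes.

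PAX proteins are transcription factors that bind DNA through a paired domain, and some of them also carry a homeodomain. They fall into subgroups of close paralogues: PAX1 with PAX9, PAX2 with PAX5 and PAX8, PAX3 with PAX7, and PAX4 with PAX6. At the stage of early somites and an open neural plate, *Pax3* and *Pax7* mark the dorsal neural tube and the dermomyotome, *Pax6* the eye field and ventral neural tube, *Pax2* and *Pax8* the midbrain-hindbrain boundary, the otic placode and the intermediate mesoderm, *Pax1* the sclerotome, and *Pax9* the pharyngeal endoderm, while *Pax4* is known from pancreatic endocrine cells and *Pax5* from the midbrain-hindbrain boundary and B cells. Promoters of such developmental regulators are often rich in CG dinucleotides and are known targets of PRC2 in embryonic stem cells.

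To show this sequence feature, CG dinucleotides, which read the same on both strands, were counted in the 300 bases from 250 before to 50 after each transcript start in a RefSeq table of build GRCm38.p6. The table held 10 such windows for 7 of the *Pax* genes, with 3 for *Pax2*, 2 for *Pax6* and none for *Pax3* or *Pax4*. A median of 16.5 CG per *Pax* window stood against 7 over all 32851 windows, and 8 of the 10 *Pax* windows held more than 7, as did 48.65% of all windows. The third *Pax2* window was richest with 30 CG, a count reached by 11.7% of all windows, and the *Pax5* window held 23, reached by 21.5%. The poorest were the first *Pax2* window and the *Pax8* window, each with 7 CG, a count reached by 52.1% of all windows. *Pax6* had 18 and 16 CG in its windows, *Pax7* 17, *Pax1* 13 and *Pax9* 11. The 250 bases before the start are printed for *Pax7*, which among the genes with a window had the smallest unadjusted p between the father groups, and for *Pax8*, which shares the lowest count. Both lie on the minus strand and are written 5′ to 3′ along the gene, with each CG in capitals. *Pax7* is from chr4:139832969-139833218 with 13 CG, and *Pax8* is from chr2:24475600-24475849 with 6 CG.
Pax7: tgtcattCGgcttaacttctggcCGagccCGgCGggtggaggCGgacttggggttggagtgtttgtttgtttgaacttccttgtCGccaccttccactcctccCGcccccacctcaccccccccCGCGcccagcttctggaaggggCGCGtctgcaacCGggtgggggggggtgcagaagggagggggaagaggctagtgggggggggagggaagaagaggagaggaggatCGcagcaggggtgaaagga
Pax8: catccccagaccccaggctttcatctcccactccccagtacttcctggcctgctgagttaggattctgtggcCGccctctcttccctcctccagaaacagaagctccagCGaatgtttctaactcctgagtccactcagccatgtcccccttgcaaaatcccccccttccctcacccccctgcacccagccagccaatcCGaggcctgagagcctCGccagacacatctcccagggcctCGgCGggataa

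The 9 genes were represented by 14 probes on 33 spots of each array. Agilent's software marks a spot as well above background when it clears the local background by a margin. By that mark, *Pax1*, *Pax3*, *Pax6*, *Pax7*, *Pax8* and *Pax9* each had a probe well above background on all 8 arrays, and both *Pax3* probes did. The brighter *Pax2* probe (A_55_P2075127) was well above background on 6 arrays, those of all 4 embryos of wt/wt fathers and of hypo/wt father replicates 2 and 3. *Pax4* had 1 probe (A_51_P514224), well above background on 2 arrays, wt/wt father replicate 1 and hypo/wt father replicate 3. *Pax5* had a probe well above background on 2 arrays, wt/wt father replicates 3 and 4, and a second probe on 0 arrays. Probes entered the test with that mark on 4 or more arrays and a mean above the lowest 20% of probes. This left 9 *Pax* probes of 7 genes among 33093 tested probes, and *Pax4* and *Pax5* had no tested probe. The 5 untested probes, accounted for below by their levels, were the *Pax4* probe, both *Pax5* probes and the dimmer probes of *Pax2* and *Pax6*.

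The arrays differed in ways that touch the dim probes. Genes for olfactory and vomeronasal receptors, which a whole embryo is known to express little, were well above background at 452 of 1327 genes on the array of wt/wt father replicate 1, at 511 on that of hypo/wt father replicate 3 and at 52 to 179 on the other 6. On the array of hypo/wt father replicate 4 the median local background was 133. The remaining 3 arrays of that slide had 30 to 32, and the slide of the wt/wt fathers had 50 to 51. The father groups were hybridised on separate slides, and effects of slide and of father cannot be told apart. All 9 of the listed markers of the embryo proper were well above background on all 8 arrays, as were all 6 markers of primitive erythroid cells and all 7 of yolk sac endoderm. Of 6 markers of decidua and trophoblast, 4 were well above background on every array and *Tpbpa* and *Ctsq* on 0. The summed level of the decidua and trophoblast markers, as a multiple of the 75th percentile, ran from 14.3 to 41.6 with wt/wt fathers and from 13.8 to 38.4 with hypo/wt fathers. That of the primitive erythroid markers was 474 in wt/wt father replicate 4 and 739 to 1077 in the other 7 embryos, and that of the yolk sac markers 474 in the same embryo and 575 to 664 in the others. By the labels, 3 of the 4 embryos of wt/wt fathers share the first part of their embryo code, and nothing in the labels says that the embryos came from separate litters, so p-values measure the spread between these 8 embryos. The study's breeding plan lists fewer wt/wt males than there are embryos of wt/wt fathers, while a legend on these arrays can be read as a male for each embryo, so the number of fathers is not settled, and embryos, not fathers, were the units of every test.

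*Pax3* had the smallest unadjusted p-values of the family, and its mean was lower in embryos of hypo/wt fathers at both of its probes, although neither difference passed the adjusted threshold. *Pax3* is required for neural tube closure, neural crest and limb muscle precursors. On the bright probe (A_55_P2033705), the embryos of wt/wt fathers measured 1.76, 1.86, 1.92 and 1.98, and those of hypo/wt fathers 1.66, 1.79, 1.52 and 1.65. The groups overlapped through a single pair, with hypo/wt father replicate 2 above wt/wt father replicate 1. The group means were 1.88 ± 0.09 (SD, n = 4) and 1.65 ± 0.11 (SD, n = 4), a log2 difference of -0.22 with a standard error of 0.08. As a fold this is 0.856, with a 95% interval from 0.748 to 0.98 in limma. The other *Pax3* probe (A_51_P315734) is printed on 10 spots, and it measured -0.42, -0.34, -0.43 and -0.13 with wt/wt fathers against -0.58, -0.55, -0.52 and -0.58 with hypo/wt fathers. Here every embryo of a hypo/wt father was below every embryo of a wt/wt father. The means were -0.33 ± 0.14 (SD, n = 4) and -0.56 ± 0.03 (SD, n = 4), a log2 difference of -0.23 with a standard error of 0.08. The probes gave unadjusted limma p-values of 0.0299 and 0.0281, and both had a Benjamini-Hochberg adjusted p of 1.00 over all tested probes. The two-sided exact permutation test on the bright probe gave p = 0.0571. The two-sided exact permutation test on the 10-spot probe gave p = 0.0286, the smallest that 4 embryos against 4 allow. In a whole embryo, fewer cells of a type and less RNA per cell cannot be told apart.

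*Pax7*, the paralogue of *Pax3*, lay lower in embryos of hypo/wt fathers by a like amount, with groups that overlapped. Its probe (A_51_P295131) measured -2.02, -2.07, -1.94 and -1.77 with wt/wt fathers and -2.24, -2.16, -1.97 and -2.33 with hypo/wt fathers. Of the latter, replicate 3 lay among the embryos of wt/wt fathers and the other 3 below all of them. The log2 difference was -0.23 with a 95% interval from -0.47 to 0.02, an unadjusted limma p of 0.0638 and an adjusted p of 1.00.

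*Pax6*, a regulator of eye, forebrain and ventral neural tube, measured -0.92, -0.84, -0.71 and -0.89 on its bright probe (A_55_P2022946) with wt/wt fathers and -0.97, -0.81, -1.10 and -1.17 with hypo/wt fathers. Hypo/wt father replicate 2 was the second highest of all 8, and the other 3 were the lowest. The log2 difference was -0.17 with a 95% interval from -0.40 to 0.06 and an adjusted p of 1.00 in limma. The dim *Pax6* probe (A_52_P469306) was well above background on the array of wt/wt father replicate 4 alone, lay between -6.62 and -5.20 over the 8 embryos and was not tested.

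*Pax8*, which acts with *Pax2* in kidney and otic development, measured -1.39, -1.69, -1.59 and -1.59 on its probe (A_55_P2039532) with wt/wt fathers and -1.65, -1.77, -1.37 and -1.98 with hypo/wt fathers. The embryos of hypo/wt fathers held both the highest and the lowest value. The log2 difference was -0.13 with a 95% interval from -0.45 to 0.19, and it ran from -0.24, without hypo/wt father replicate 3, to -0.035, without hypo/wt father replicate 4. *Pax2*, by contrast, spread widely on its bright probe. It measured -3.64, -5.05, -4.75 and -4.16 with wt/wt fathers and -5.43, -4.49, -2.45 and -5.34 with hypo/wt fathers. The highest values came from hypo/wt father replicate 3 and wt/wt father replicate 1, the arrays with the most receptor genes above background, and the part of that signal in the *Pax2* level was not tested. The log2 difference of -0.02 had a 95% interval from -1.62 to 1.57, which holds changes of 2-fold in either direction. With an embryo left out it ran from -0.68, without hypo/wt father replicate 3, to 0.31, without hypo/wt father replicate 1. The dim *Pax2* probe (A_55_P2148518) was well above background on 0 arrays and lay between -7.75 and -4.75.

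*Pax1*, needed for the ventral sclerotome and the vertebral bodies, had a narrow range with wt/wt fathers and a wide one with hypo/wt fathers. Its probe (A_51_P145322) measured -1.34, -1.32, -1.37 and -1.22 in the former and -1.03, -1.25, -0.94 and -2.17 in the latter. Hypo/wt father replicate 4 lay far below the other 7 embryos, while the rest of its group lay above the median of all 8, which was -1.28. The means were -1.31 ± 0.06 (SD, n = 4) and -1.35 ± 0.56 (SD, n = 4), and the log2 difference of -0.03 had a standard error of 0.26. Without hypo/wt father replicate 4 the difference was 0.24, in the other direction, with an unadjusted limma p of 0.0449 and an adjusted p of 0.853. That array is also the one with the high local background, whose part in the low *Pax1* level was not tested.

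*Pax9*, which is needed for thymus, parathyroid, palate and teeth, differed by 0.12 on its bright probe (A_55_P2117908), with a 95% interval from -0.33 to 0.56. It measured -2.72, -3.16, -2.62 and -2.47 with wt/wt fathers and -2.53, -2.93, -2.29 and -2.76 with hypo/wt fathers, and the groups overlapped over most of their range. The dimmer *Pax9* probe (A_55_P1955756), well above background on 5 arrays, differed by 0.33 with an interval from -0.93 to 1.59. Its levels ran from -6.59 to -4.60 with wt/wt fathers and from -5.84 to -3.88 with hypo/wt fathers.

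**Figure D1:**
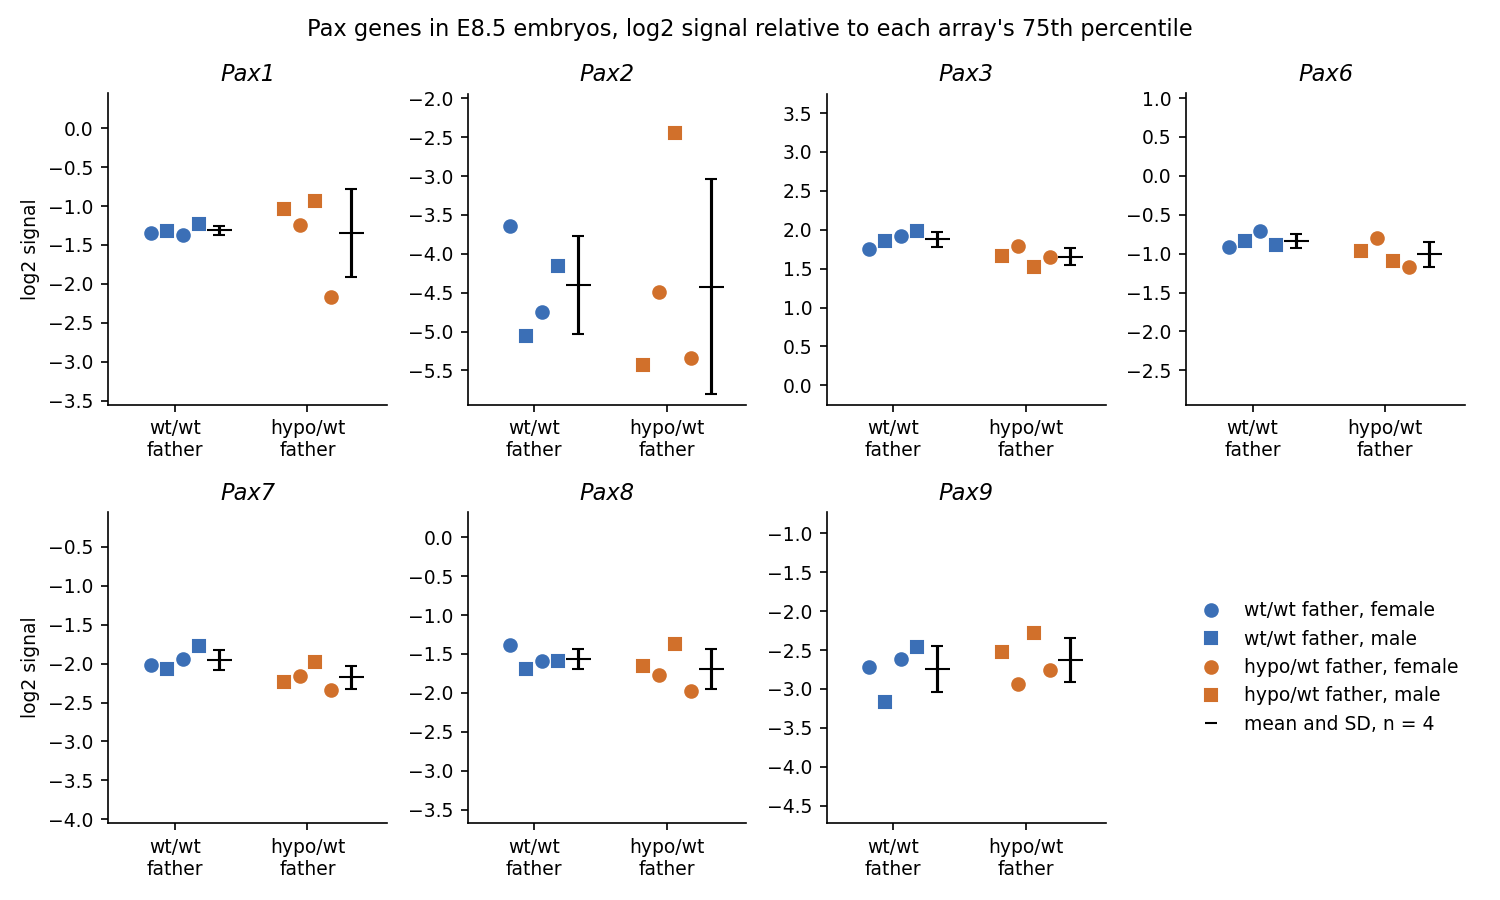
Log2 signal of the brightest tested probe of 7 *Pax* genes in each of the 8 embryos, by the father's genotype on the horizontal axis. Circles are females and squares males, black bars give the mean and SD (n = 4), and every panel spans the same number of log2 units, so that the narrow spread of *Pax3* and the wide one of *Pax2* can be compared.

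In the father comparison as a whole, limma called 0 of the 9 tested *Pax* probes at an adjusted p under 0.01 and at least 2-fold, as it called 0 of all 33093 probes (0%). An unadjusted p under 0.05 was found for 2 of the 9, both of them for *Pax3* and therefore of 1 transcript, where 4.35% of all tested probes had one. This count was 0 without wt/wt father replicate 2 or hypo/wt father replicate 1, and 1 without wt/wt father replicate 3, wt/wt father replicate 4 or hypo/wt father replicate 4. In the fit without hypo/wt father replicate 4 that 1 probe was the *Pax1* probe, and neither *Pax3* probe had such a p. The count was also 0 when embryos of a shared code were fitted as correlated, at an estimated 0.54, and there the bright *Pax3* probe had an unadjusted limma p of 0.0931. The share of all tested probes with such a p in these other fits is not given, so the changes in the count are not read as results about the *Pax* genes. The groups did not overlap at 1 of the 9 probes, the 10-spot *Pax3* probe, against 3.16% of all tested probes. Of the 9 probes, 7 were lower and 2, both for *Pax9*, were higher with hypo/wt fathers. The 7 include both *Pax3* probes, and *Pax1* and *Pax2*, at -0.03 and -0.02, changed sign in some alternatives. The share of all tested probes that were lower is not given, so the count is not read as a trait of the family. The median log2 difference of the 9 probes was -0.13, and that of all tested probes was -0.00. The median size of the difference, regardless of sign, was 0.17 for the *Pax* probes and 0.10 for all. The 95% intervals of *Pax1*, *Pax3*, *Pax6*, *Pax7*, *Pax8* and of the bright *Pax9* probe all lay within a 2-fold change in either direction, while those of *Pax2* and of the dimmer *Pax9* probe did not.

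**Figure D2:**
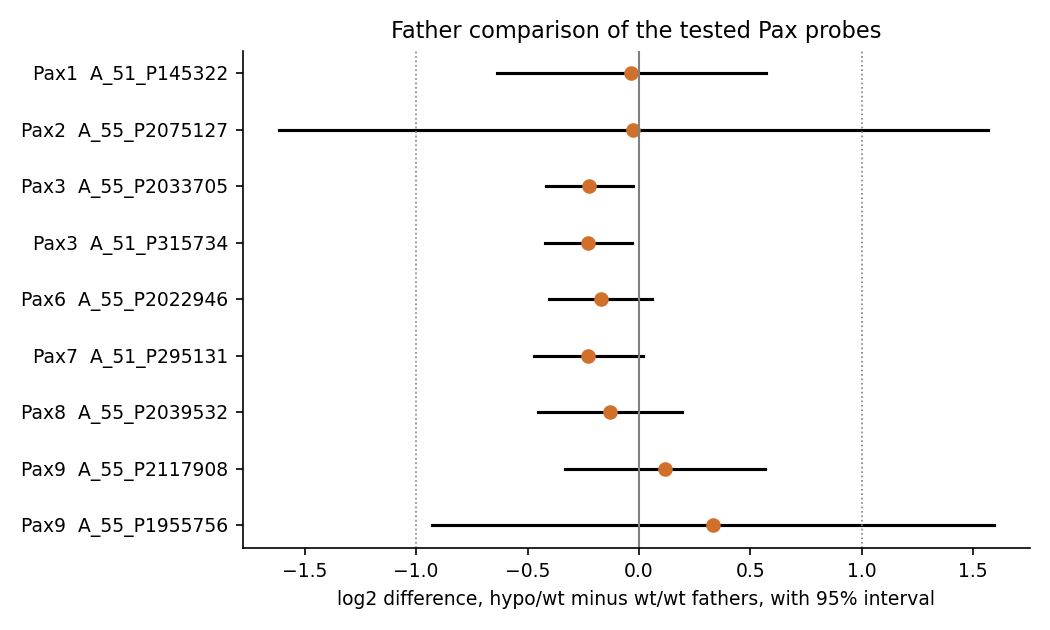
Log2 difference between embryos of hypo/wt and wt/wt fathers for the 9 tested *Pax* probes, with limma's 95% interval (n = 4 per group). Dotted lines mark a 2-fold change, and only the intervals of both *Pax3* probes, at -0.22 and -0.23, leave out 0.

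Setting aside wt/wt father replicate 1 and hypo/wt father replicate 3 together, a choice made after seeing the data, left *Pax3* at -0.22 and moved *Pax7* to -0.32, *Pax2* to -0.43 and *Pax1* to -0.18. Of the 9 probes, 3 then had an unadjusted p under 0.05. The share of all tested probes with such a p in that fit is not given, so the count is not read as a result about the *Pax* genes. Limma called 0 of the 9 there and 1 of all 33093 tested probes. Over 20 alternatives, the bright *Pax3* probe lay between -0.33 and -0.18 and never changed direction. *Pax7* lay between -0.33 and -0.12 over 19 alternatives and *Pax6* between -0.27 and -0.05, both without a change of direction. Some alternatives could not move these differences: both detection filters and the terms for sex and replicate number left them as they were. Among the alternatives that could, the shift by the array median moved the median of all tested probes to -0.10, and there the differences were -0.33 for *Pax3* and *Pax7* and -0.27 for *Pax6*.

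The levels varied between embryos to different degrees from probe to probe. Over all 8 embryos the SD of the log2 level was 0.15 for *Pax3* and *Pax6*, 0.18 for *Pax7*, 0.20 for *Pax8*, 0.28 for *Pax9*, 0.37 for *Pax1* and 0.99 for *Pax2*. Ranked by their spread within father groups among all tested probes, the bright *Pax3* probe stood at percentile 17.5, *Pax6* at 27.8, *Pax1* at 74.1 and *Pax2* at 94. A percentile near 0 is a probe that hardly varied among embryos of a group. Probes of a single gene could differ in this: the bright *Pax9* probe stood at 62.8 and the dimmer at 90.7. The *Pax2* probe was well above background on only 6 arrays, and the part of low signal in these spreads was not tested. Hypo/wt father replicate 3 had the highest level for 4 of the 7 genes, *Pax1*, *Pax2*, *Pax8* and *Pax9*, and the lowest for *Pax3*. Hypo/wt father replicate 4 had the lowest for 4, *Pax1*, *Pax6*, *Pax7* and *Pax8*. Wt/wt father replicate 4 was highest for *Pax3* and *Pax7*. In this embryo, with the lowest erythroid and yolk sac sums, the mean deviation from the 8-embryo mean was -1.01 over the primitive erythroid markers, 0.24 over the genes of dorsal neural tube and neural crest and 0.21 over the markers of the embryo proper, and the part of this in its *Pax* levels was not tested. Without it the bright *Pax3* probe differed by -0.19 between father groups and *Pax7* by -0.17.

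Repeated spots show how much of this lay within an array. The *Pax1* probe is printed on 10 spots, whose SD within an array had a median of 0.06 and a highest value of 0.10, against 0.37 between embryos. In hypo/wt father replicate 4 its 10 spots lay between -2.31 and -2.03, below every spot of the other 7 arrays, of which the lowest was -1.43. For the 10-spot *Pax3* probe the median SD within an array was 0.07 and the SD between embryos 0.15. The bright *Pax6* probe has 2 spots, with a median SD of 0.05 within an array against 0.15 between embryos. Spots of an array share 1 RNA and 1 hybridisation, so they show the error of the reading and not that of the embryo.

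**Figure D3:**
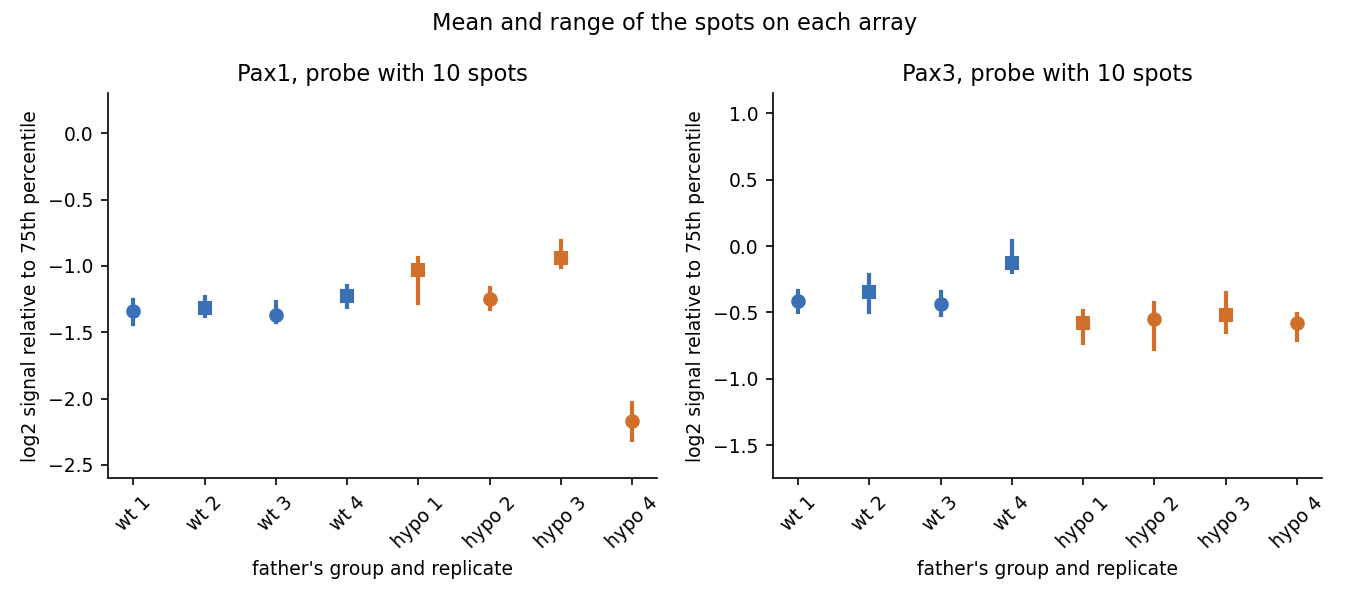
Mean (symbol) and range (line) of the 10 spots of a *Pax1* and a *Pax3* probe on each array, on log2 axes of equal span. All *Pax1* spots of hypo/wt father replicate 4 lie between -2.31 and -2.03, and the *Pax3* means of the 4 hypo/wt embryos lie between -0.58 and -0.52.

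Where a gene had several probes, their levels were set against each other over the 8 embryos, as a description. Pearson's r was 0.76 between the *Pax3* probes, both well above background on all arrays, and 0.79 between the *Pax9* probes, of which the dimmer was so on 5. The *Pax6* pair, of which 1 probe was dim, had r = -0.32, the *Pax2* pair 0.58 and the *Pax5* pair 0.74, each with a probe well above background on no more than 1 array.

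The dim probes of the family were mostly highest on 1 array. Of the 7 probes not well above background on all 8 arrays, 6 were highest in hypo/wt father replicate 3, as were 3 of the 7 that were. The median level of all probes was -3.13 on that array and -4.59 to -3.75 on the others. The share of all dim probes that were highest there is not given, so the count is not read as a trait of the family. The *Pax4* probe lay between -8.01 and -6.74 in 6 embryos and at -4.73 and -3.76 in wt/wt father replicate 1 and hypo/wt father replicate 3. These are the only arrays where it was well above background, and they are the ones with 452 and 511 receptor genes above background. The brighter *Pax5* probe (A_55_P2126394) measured -5.65, -6.05, -5.60 and -5.26 with wt/wt fathers and -6.29, -6.78, -4.53 and -6.72 with hypo/wt fathers. It was well above background in wt/wt father replicates 3 and 4 and in 0 of 4 embryos of hypo/wt fathers, yet its highest level came from hypo/wt father replicate 3, so no fold is given. The second *Pax5* probe (A_51_P122855) lay between -7.81 and -4.59.

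**Figure D4:**
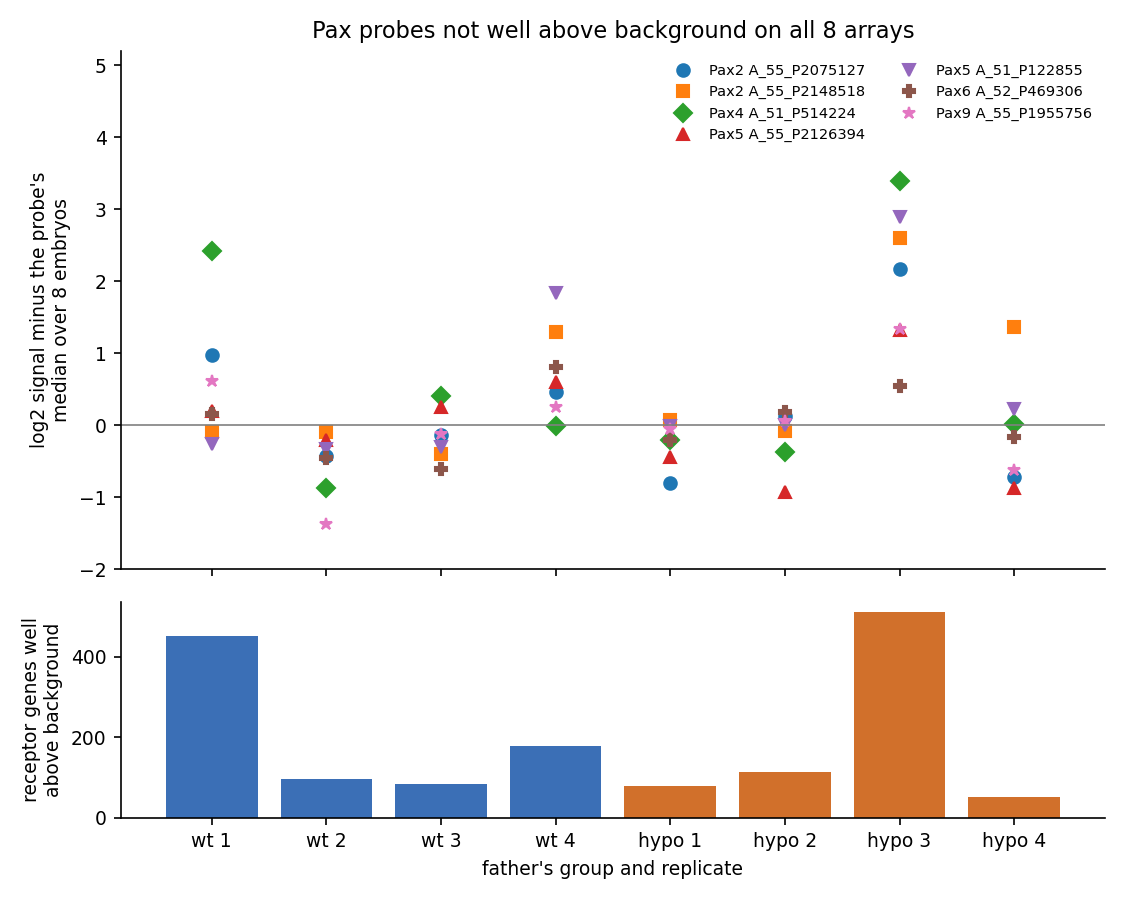
Upper panel, log2 signal of the 7 *Pax* probes not well above background on every array, as the deviation from each probe's median over 8 embryos, by array. Lower panel, the number of 1327 olfactory and vomeronasal receptor genes well above background on the same arrays, which was 452 in wt/wt father replicate 1 and 511 in hypo/wt father replicate 3.

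Between the sexes, with the father group in the fit, 0 of the 9 *Pax* probes were called, where limma called 11 of all 33093 (0.0332%), and 0 of the 9 had an unadjusted p under 0.05, against 3.27% of all. *Pax1* had the largest sex difference among the probes well above background on all arrays. The 4 females had a mean of -1.53 ± 0.43 (SD) and the 4 males one of -1.13 ± 0.17 (SD), a log2 difference of -0.40 with an adjusted p of 1.00. It rested on hypo/wt father replicate 4, a female: within the slide of the wt/wt fathers the difference was -0.08 and within that of the hypo/wt fathers -0.72, and without that embryo it was -0.15. Within the slides of the wt/wt and hypo/wt fathers, *Pax8* gave 0.15 and -0.36, *Pax9* 0.15 and -0.44, and *Pax2* 0.41 and -0.97. For *Pax3* these values were -0.08 and 0.13, for *Pax7* -0.06 and -0.14 and for *Pax6* 0.05 and 0.04. Whether the father difference itself differed between the sexes was tested by an interaction term, which had an unadjusted p under 0.05 for 0 of the 9 *Pax* probes, against 2.22% of all probes. The smallest was that of *Pax8*, 0.0603 in limma with an adjusted p of 0.996.

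Paralogues that share tissues were compared over the 8 embryos, in the 3 pairs where both genes had a tested probe. *Pax2* and *Pax8* had Pearson's r = 0.79 (exact permutation p = 0.0213, adjusted over 3 pairs 0.0638) and Spearman's rho = 0.71 (exact permutation p = 0.0576, adjusted 0.151). The relation rested on wt/wt father replicate 1 and hypo/wt father replicate 3, without which r was 0.46. Over all 8 embryos r turned to -0.76 when the arrays were aligned on their medians. It stayed positive with quantile normalization and with normexp background correction. *Pax3* and *Pax7* had r = 0.57 (exact permutation p = 0.144, adjusted 0.216) and rho = 0.57 (exact permutation p = 0.151, adjusted 0.151), and without hypo/wt father replicate 3 and wt/wt father replicate 4 r was 0.88. Within the slide of the wt/wt fathers r was 0.80 and within that of the hypo/wt fathers -0.47, each over 4 embryos. *Pax1* and *Pax9* had r = 0.36 (exact permutation p = 0.383, adjusted 0.383) and rho = 0.60 (exact permutation p = 0.132, adjusted 0.151), and r was 0.34 and 0.52 within the slides and 0.40 without hypo/wt father replicates 3 and 4. For *Pax2* and *Pax8*, r within the slides was 0.92 and 0.82.

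The arrays differed in the shape of their signal distribution. The 75th percentile lay 3.04 above the median, on the log2 scale, in hypo/wt father replicate 3 and 3.63 above it in wt/wt father replicate 1, but 4.08 to 4.36 above it on the other 6 arrays. Alignment on the medians moves those 2 embryos down against the rest for every gene at once. Under it *Pax3* and *Pax7* had r = 0.98, a value that holds this shared move and is not read as a result about these genes. With quantile normalization their r was 0.94 and with normexp background correction 0.96.

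**Figure D5:**
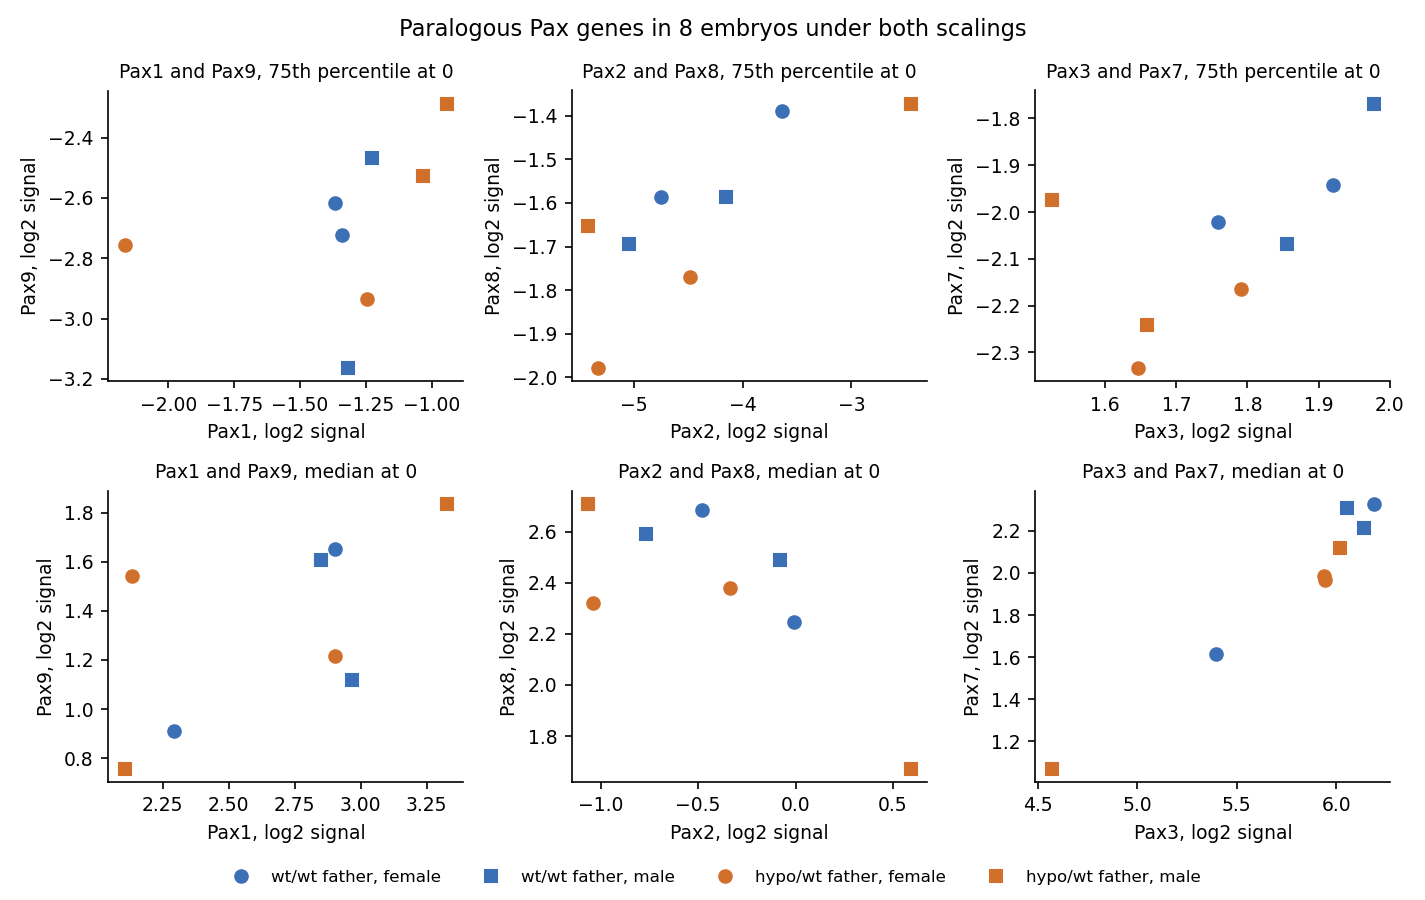
Levels of 3 pairs of paralogous *Pax* genes in the 8 embryos, on the log2 scale, with the 75th percentile of each array at 0 in the upper row and the median at 0 in the lower row. Colours give the father group and symbols the sex, and *Pax2* against *Pax8* turns from r = 0.79 to r = -0.76 between the rows, through hypo/wt father replicate 3 and wt/wt father replicate 1.

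Genes that act with or beside the *Pax* genes were read from 9 lists, of which 77 of 90 genes were tested. Limma called 0 of the 77 between the father groups, 0 had an unadjusted p under 0.05 (smallest 0.153), where 4.35% of all tested probes did, 39 were higher and 38 lower, and their median log2 difference was 0.01. In the Pax-Six-Eya-Dach network, through which several *Pax* genes act, 0 of 12 tested genes were called and the median was -0.03. The gene with the smallest p was *Six3*, an anterior forebrain gene, with a log2 difference of 0.20. Of 12 tested genes of somite and sclerotome the median was 0.01, and *Meox1*, which acts in somite patterning, stood at 0.33. Of 8 genes of the midbrain-hindbrain boundary the median was -0.09. *Wnt1*, expressed at that boundary, stood at 0.59, a value that was 0.01 without hypo/wt father replicate 1. In the 11 genes of dorsal neural tube and neural crest, where *Pax3* and *Pax7* are expressed, the median was -0.07, and *Zic1* stood at -0.45 with a standard error of 0.30, or at -0.16 without hypo/wt father replicate 4.

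Of 6 eye field and forebrain genes the median was 0.12, with *Tbx2* at 0.29. Of 10 genes of intermediate mesoderm and otic placode the median was -0.03, with *Foxi2* at -0.18, and of 6 pharyngeal endoderm genes 0.02, with *Hoxa3* at 0.16. *Foxn1*, which marks thymic epithelium, was well above background on 0 arrays. The 7 pancreatic endocrine genes had a median of 0.04, with *Pdx1* at -0.27, and the 5 B cell genes 0.05, with *Cd79b* at 0.29. Single embryos moved several of these values: with an embryo left out, *Six3* ran from 0.11 to 0.35, *Meox1* from 0.18 to 0.51, *Tbx2* from 0.10 to 0.42, *Foxi2* from -0.32 to -0.057, *Hoxa3* from 0.10 to 0.24, *Pdx1* from -0.40 to -0.17 and *Cd79b* from -0.12 to 0.50. Between the sexes limma called 0 of the 77, and, where 3.27% of all tested probes did, 3 had an unadjusted p under 0.05, each with a lower mean in females: *Tbx18* at -0.42, *Twist1* at -0.26 and *Nkx2-1* at -0.61.

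Among the lists of tissue markers, 1 tested gene of decidua and trophoblast had an unadjusted p under 0.05 between the father groups, of 4 tested and against 4.35% of all tested probes. *Prl8a2*, a decidual prolactin, was at 2.20 ± 0.57 (SD, n = 4) with wt/wt fathers and at -0.26 ± 1.57 (SD, n = 4) with hypo/wt fathers, a log2 difference of -2.46 with an adjusted p of 1.00 in limma, and its groups did not overlap, as at 3.16% of all tested probes. Its list had a median of -0.49 over 4 tested genes. With wt/wt father replicate 1 and hypo/wt father replicate 3 set aside, *Prl8a2* stood at -1.74 and the median of the list was 0.02. The lists of embryo proper, primitive erythroid cells and yolk sac endoderm had medians of 0.00, 0.18 and 0.03, with *Meox1*, *Klf1* at 0.53 and *Apob* at -0.36 as the genes with the smallest p. The erythroid median ran from -0.02, without wt/wt father replicate 4, to 0.42, without wt/wt father replicate 1, and with an embryo left out *Klf1* ran from 0.29 to 0.69 and *Apob* from -0.48 to -0.23. Between the sexes, all 6 tested erythroid markers had a higher mean in females, by 0.23 to 0.57, with 0 called. *Gata1*, an erythroid transcription factor with a log2 difference of 0.57, was the 1 of them with an unadjusted p under 0.05, against 3.27% of all tested probes. The other lists of tissue markers had 0 genes with such a p. The mean deviation over the erythroid markers was -1.01 in wt/wt father replicate 4, a male, and -0.06, -0.02 and 0.20 in the other males. In the females it was 0.42, 0.14, 0.37 and -0.04. The part of such tissue in the *Pax* levels was not tested.

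Of 31 genes annotated beside or overlapping a *Pax* gene, 8 were on the array by name and 7 were tested, with a median log2 difference of 0.02 and 0 called. *Elp4*, a gene that overlaps the annotated interval of *Pax6* and whose introns are known to hold *Pax6* enhancers, had the smallest unadjusted p. Its log2 difference was -0.11 with a standard error of 0.09, and ran from -0.16 to -0.067 with an embryo left out. *Immp1l*, the nearest gene to one side of *Pax6*, stood at -0.06. Beside *Pax4*, *Fscn3* stood at -0.10 and *Snd1* at 0.06, overlapping *Pax9*, *Slc25a21* stood at 0.02, and the noncoding AI646519, overlapping *Pax1*, stood at 0.08. *Psd4*, beside *Pax8*, differed by 0.21 with a standard error of 1.00. *Pax6os1*, the antisense transcript of *Pax6*, was well above background on 0 arrays.

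The genes whose level ran most like each *Pax* gene over the 8 embryos were found among 15371 genes, each through its brightest tested probe. They were *Slc2a13* (r = 0.97) and *Psmb3* (0.95) for *Pax1*, *Foxi1* (0.99) and A930018P22Rik (0.99) for *Pax2*, *Cenph* (0.96) and *Fancf* (0.95) for *Pax3*, *Mmp1a* (0.98) and *Ctsk* (0.98) for *Pax6*. For *Pax7* they were *Zfp760* (0.99) and *Lfng* (0.97), for *Pax8* *Mal2* (0.98) and *Cetn1* (0.97), and for *Pax9* *Rrp7a* (0.97) and *G2e3* (0.93). Each was picked as a highest r of 15371 over 8 embryos, and how high such a search runs by chance was not tested. These points share arrays and scaling, and the likeness was not kept by all of them. Under quantile normalization *Slc2a13* fell to r = 0.22 with *Pax1* and *Foxi1* to -0.84 with *Pax2*. *Cetn1* fell to 0.50 with *Pax8*, *Zfp760* to 0.65 with *Pax7*, and *G2e3* and *Rrp7a* to 0.68 and 0.71 with *Pax9*. *Psmb3* stayed at 0.95 with *Pax1* and *Cenph* at 0.97 with *Pax3*.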

How the data were processed

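One-colour Agilent 8x60K arrays of 8 embryos were analysed. The authors read the slides with Agilent Feature Extraction 11.0.1.1, per the submitters' processing notes. The deposited spot intensity is the software's processed signal, corrected for background and unscaled between arrays, and the table of the whole series repeats it within 0.497%. Unused sample columns numbered 0. Here the intensity was put on the log2 scale and shifted by the 75th percentile of its array, after removal of control spots and of spots marked as outliers, and repeated spots were averaged. A probe among 55681 was tested if its mean cleared the lowest 20% and the software marked it well above background on 4 or more arrays. limma 3.58.1 (R 4.3.3, with version 1.17.8 of data.table) compared groups, with calls at an adjusted p (Benjamini-Hochberg) under 0.01 and a change of 2-fold or more. The number of arrays limits the precision. The scripts were tested on simulated data.

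RefSeq accessions were given for 28685 probes, of which 27235 were named through a GRCm38.p6 annotation, used only for names, neighbours and promoters because the array's intervals are on mm9. Text summaries and plots used Python 3.11.15, pandas 2.3.3, numpy 2.4.6 and matplotlib 3.10.9. Besides the 9 *Pax* genes, the text names for each list the tested gene with the smallest unadjusted p between father groups, the 2 genes most alike to each *Pax* gene, and neighbouring genes. Genes named for lacking signal on all arrays or for a sex p under 0.05 were chosen after their values were seen. The members and the lists were chosen with earlier results of these data known.

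Alternatives covered the background (normexp, offset 50, on the median spot signal, followed by quantile normalization), the scaling (array median, or quantile normalization alone), the values of the series table, both looser and stricter detection filters, terms for sex, replicate number or the first part of the embryo code, array weights, a looser threshold, and each embryo left out.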

Additional observations from a re-analysis of the deposited data

Results flagged for a closer look

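*Pax1* in female embryos was set apart by 1 embryo. Its 4 levels were -1.34, -1.37, -1.25 and -2.17 on the log2 scale, and the gap between hypo/wt father replicate 4 and the nearest of the others was 0.869 of the whole range, above Dixon's 95% limit for a group of 4. The check covered 36 groups of 4, the 9 tested *Pax* probes in each father group and each sex, and 1 passed the limit, where chance gives about 1 in 20. All 10 spots of the probe on that array were low, and the array has a median local background of 133.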

How the results depend on the processing

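The count of *Pax* probes called was 0 between father groups, between sexes and in the interaction under each alternative run for it. The 2 *Pax* probes with an unadjusted p under 0.05 between father groups became 0 with the median shift, with no filter on dim probes, with a random block for the embryo code and with the replicate block, and ran from 0 to 2 with an embryo left out. Between sexes this count ran from 0 to 1 with an embryo left out. For these alternatives the share of all tested probes with such a p is not given, so the counts are not read as results about the *Pax* genes. The replicate numbers did not pair the samples, since the correlations of their deviations were -0.55, -0.05, -0.59 and -0.15, and 0 of 4 embryos correlated best with their own number. The 0 calls over all probes between father groups became 1 with the pair of embryos set aside together, and ran from 0 to 1 with 1 embryo left out. The 11 between sexes became 5 with no filter, 0 with the filter on all 8 arrays, 0 with the replicate block, 7 with that pair set aside, and 4 and 0 within the slides of the wt/wt and hypo/wt fathers, and ran from 4 to 9 with an embryo left out.

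The log2 differences that changed sign all had an unadjusted p over 0.05 in the fit reported, and the cause was not tested. Between father groups, *Pax2* was 0.054 with normexp, 0.062 with quantile normalization and from -0.68 to 0.31 with an embryo left out, *Pax1* ran from -0.17 to 0.24, *Pax9* from -0.024 to 0.22 and *Cd79b* from -0.12 to 0.50, and *Cd79b* was -0.19 with the pair set aside. Between sexes, the median shift gave 0.044 for *Pax7*, 0.042 for *Pax8* and 0.00085 for *Pax9*, array weights gave 0.20 for *Pax2* and 0.0044 for *Pax9*, and the pair set aside gave 0.18 for *Pax2*. The slide of the wt/wt fathers gave 0.41 for *Pax2*, -0.077 for *Pax3*, 0.15 for *Pax8* and 0.15 for *Pax9*. With an embryo left out *Pax2* ran from -0.74 to 0.45, *Pax3* from -0.025 to 0.078, *Pax6* from -0.026 to 0.12 and *Pax8* from -0.20 to 0.0032. The correlation of *Pax2* and *Pax8* was -0.76 with the median shift and 0.84 on deviations from the group means. It stayed positive with quantile normalization and with normexp. That of *Pax3* and *Pax7* was 0.96 with normexp and 0.94 with quantile normalization. With the median shift, which moves all genes of an array at once, it was 0.98. Slide and father group are the same division, 4 arrays a group limit what can be seen, and dim probes are near background.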
